A study of Mus musculus with 12 samples.

Results

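The knockdown experiment of this series set 3 libraries of AML12 cells that received an siRNA against Dusp6 (siDUSP6, genotype label DUSP6 knockdown) against 3 libraries of AML12 cells that received a control siRNA (NC, genotype label WT). RNA was taken 48 h after transfection with lipo2000. The genes described are those in the deposited table of this contrast, 2150 of the 2600 genes listed across the series, in 6 of its 12 libraries. The table holds selected genes, and genes outside it were not analysed here. AML12 is an immortal line from hepatocytes of a mouse transgenic for human TGF-alpha, a ligand of the EGF receptor. The cells of all 6 libraries grew in medium with serum, dexamethasone and ITS. The line is 1 model, with 1 siRNA group against 1 control siRNA group, so a response to lower Dusp6 and a response to the siRNA molecule cannot be told apart. Whether the 3 libraries of a group are separate cultures is not stated, and the p-values therefore reflect only how much these libraries vary, possibly for technical reasons. In bulk RNA, fewer cells of a kind and less RNA per cell cannot be told apart either.

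DUSP6 is a cytoplasmic phosphatase that removes phosphate from the MAP kinases ERK1 and ERK2. ERK is the last kinase of a cascade from growth factor receptors through RAS, RAF and MEK, and it induces transcription of Dusp6 itself, which closes a feedback loop. An siRNA is a short double-stranded RNA that directs the RNA interference machinery to a matching transcript. Type I and type III interferons act through receptors and Janus kinases on a complex of STAT proteins and IRF9 that binds the interferon-stimulated response element and induces antiviral genes. RNA sensors such as RIG-I, MDA5 and TLR3 are known to trigger interferon production.

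Dusp6 (ENSMUSG00000019960, chromosome 10, 99263231 to 99267489, plus strand) had 4059, 3945 and 3801 normalized counts in NC libraries 1 to 3 and 1742, 1833 and 1775 in siDUSP6 libraries 1 to 3. The groups did not overlap, and the siDUSP6 libraries lay close together. The log2 fold change was -1.14 ± 0.06 (SE), with an edgeR adjusted p of 6.87e-07. Its value ranged from -1.17 to -1.12 when single libraries were left out.

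Most other phosphatases of the family moved the opposite way. Of 10 MAP kinase phosphatase genes 8 were listed, 6 of them higher (median log2 fold change 0.49) and 2 lower, Dusp6 itself and Dusp1. Genes past the edgeR test were 12.3% of the 13102 genes that the deposited adjusted p-values imply were tested, 6.5% higher and 5.75% lower. The edgeR test itself was run on listed genes only, and the shares of all tested genes given below have this meaning. Dusp5, a nuclear phosphatase of ERK that ERK induces, had 814, 638 and 715 normalized counts in NC and 1307, 1290.1 and 1125 in siDUSP6, a log2 fold change of 0.78 ± 0.10 (SE, edgeR adjusted p = 0.000662). Dusp10, which acts mainly on the stress kinases JNK and p38, went from 298, 308 and 294 to 503, 489 and 480.0 (0.71 ± 0.10, SE, edgeR adjusted p = 0.000791). All 3 siDUSP6 values of each of these genes lay above all 3 NC values. Dusp1, an immediate-early phosphatase of several MAP kinases, had 1807, 1951 and 2321 in NC and 1472, 1322 and 1366 in siDUSP6 (-0.55 ± 0.10, SE, edgeR adjusted p = 0.00412), so every siDUSP6 library was below every NC library. Dusp1 overlaps Ergic1 on the opposite strand, and the library kit is not stated to keep strand. Dusp4, Dusp7, Dusp8 and Dusp9 rose by 0.25, 0.35, 0.52 and 0.46 on the log2 scale. Without siDUSP6 replicate 2 or without siDUSP6 replicate 3, 2 phosphatase genes passed as higher, Dusp5 and Dusp10, and Dusp4 and Dusp9 passed in 0 of the 6 fits that left out a library.

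**Figure D1:**
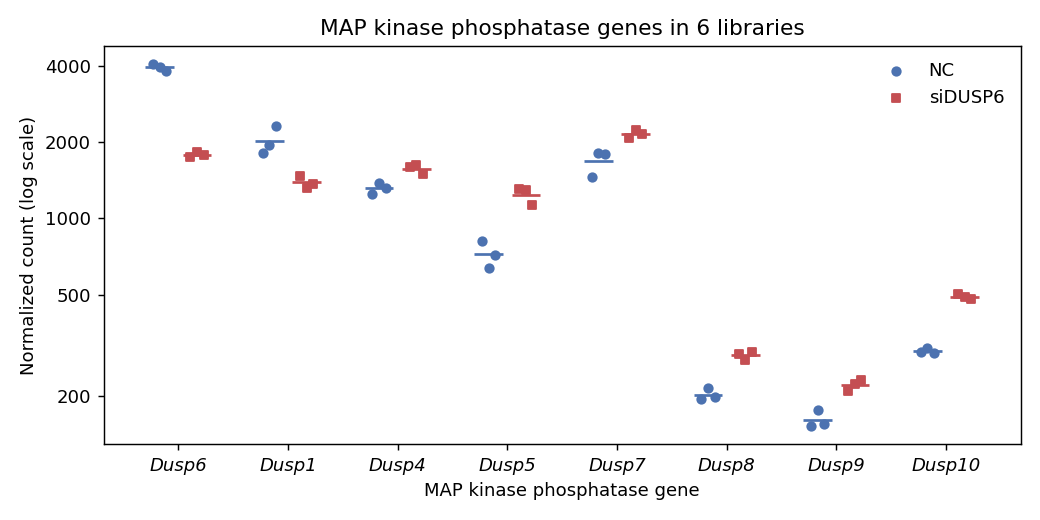
Normalized counts (log axis) of 8 MAP kinase phosphatase genes in 3 NC libraries (circles) and 3 siDUSP6 libraries (squares), with the group mean as a line. Dusp6 and Dusp1 were lower in every siDUSP6 library and the other 6 genes were higher in every siDUSP6 library.

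Genes upstream of ERK changed in both directions. Of 27 receptors, adaptors and kinases of the pathway 10 were listed, 5 of them higher and 3 lower (3 and 5 with either scaling over the listed genes). The shares over all tested genes were 6.5% and 5.75%. Map2k1, which encodes the ERK kinase MEK1, had 3245, 3305 and 3485 normalized counts in NC and 4899, 4717 and 4716 in siDUSP6, a log2 fold change of 0.51 ± 0.06 (SE, edgeR adjusted p = 0.000331). Its homologue Map2k2 and the RAS genes Hras and Nras rose by 0.34, 0.45 and 0.29, and the receptor gene Erbb3 by 0.40. These were small changes without overlap between the groups. The FGF receptor genes fell: Fgfr2 had 245, 279.7 and 324 in NC and 82.7, 73.1 and 77.2 in siDUSP6 (-1.86 ± 0.16, SE, edgeR adjusted p = 1.78e-05), and Fgfr3 changed by -0.84 ± 0.13 and Met, the receptor of hepatocyte growth factor, by -0.38 ± 0.07 (SE). Fgf1, a ligand of these FGF receptors, fell from 360.0, 369 and 473 to 185, 185 and 194 (-1.09 ± 0.13, SE, edgeR adjusted p = 0.000401). Btc, an ErbB ligand, rose from 212, 132 and 129 to 304, 327 and 283 (0.95 ± 0.18, SE, edgeR adjusted p = 0.00724). Without siDUSP6 replicate 2 or 3, 2 of the 5 higher genes upstream of ERK passed, and 3 without NC replicate 2 or siDUSP6 replicate 1.

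Genes known to respond to ERK were mostly not in the table. Of 28 ERK output and feedback genes 7 were listed, 4 higher and 1 lower, against 6.5% and 5.75% of all tested genes. Lower genes were thus no more frequent here than over all tested genes. Etv4, a transcription factor of the PEA3 group, had 884, 1000.02 and 999 normalized counts in NC and 1248, 1370.0 and 1302 in siDUSP6 (0.44 ± 0.08, SE, edgeR adjusted p = 0.00564). Hmga2, a chromatin protein, had 7509, 6199.9 and 5456 and 9902, 9711 and 9441 (0.60 ± 0.10, SE, edgeR adjusted p = 0.00282). Ier3 and Fosl1 rose by 0.42 and 0.34, and Fosl1 passed in 0 of the 6 fits that left out a library. In all 4 the siDUSP6 libraries were above the NC libraries. Spry1, a feedback inhibitor of receptor signalling, was lower, at 67.2, 71.5 and 82.1 in NC and 46.3, 47.1 and 32.1 in siDUSP6 (-0.81 ± 0.23, SE, edgeR adjusted p = 0.0383). It passed in 1 of the 6 fits that left out a library. Egr1 and Areg were listed and did not pass, but the authors' deposited table calls all 7 listed output genes, 6 higher and 1 lower. Spry2, Spry4, Etv5, Fos, Myc and Ccnd1 were among the 21 output genes that were not listed.

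The 6 libraries fell into their labelled groups. Root mean square log2 differences between libraries were 0.159 to 0.301 within groups and 0.955 to 1.08 between groups, and the first principal component held 93.6% of the variance of 1851 listed genes, which were selected for differing. Counts over the listed genes summed to 3500977 to 4078892 per library, which is no library depth. The edgeR test passed 1605 genes, 851 higher and 754 lower (53% higher), and 1603 of them had no overlap between groups. Listed genes were selected by p on these same counts, so a lack of overlap, here and in single genes, is no independent support. Of the calls 40.4% were higher with TMM and 33.9% with median of ratios, both computed on the listed genes, and 0 called genes changed direction. The changes were lopsided in size: 198 genes rose and 85 fell by at least 1 on the log2 scale, 103 and 12 by at least 2, and 69 and 3 by at least 3. Most calls were small, since 475 higher and 395 lower genes changed by less than 0.5, with medians of 0.46 and -0.48. Leaving out siDUSP6 replicate 2, siDUSP6 replicate 3 or NC replicate 2 left 694, 809 and 950 calls, and 631 genes passed without each of the 6 libraries in turn. Of 9 hepatocyte markers 7 were listed, with Alb, Ttr, Apoa1, Hnf4a and Trf lower and Krt8 and Krt18 higher. Fits without single libraries gave 3 to 5 of them lower and 0 to 2 higher, and with either scaling over the listed genes 0 were higher. Of the 24 stellate, endothelial, macrophage and lymphocyte markers 0 were listed, so their levels were not examined.

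**Figure D2:**
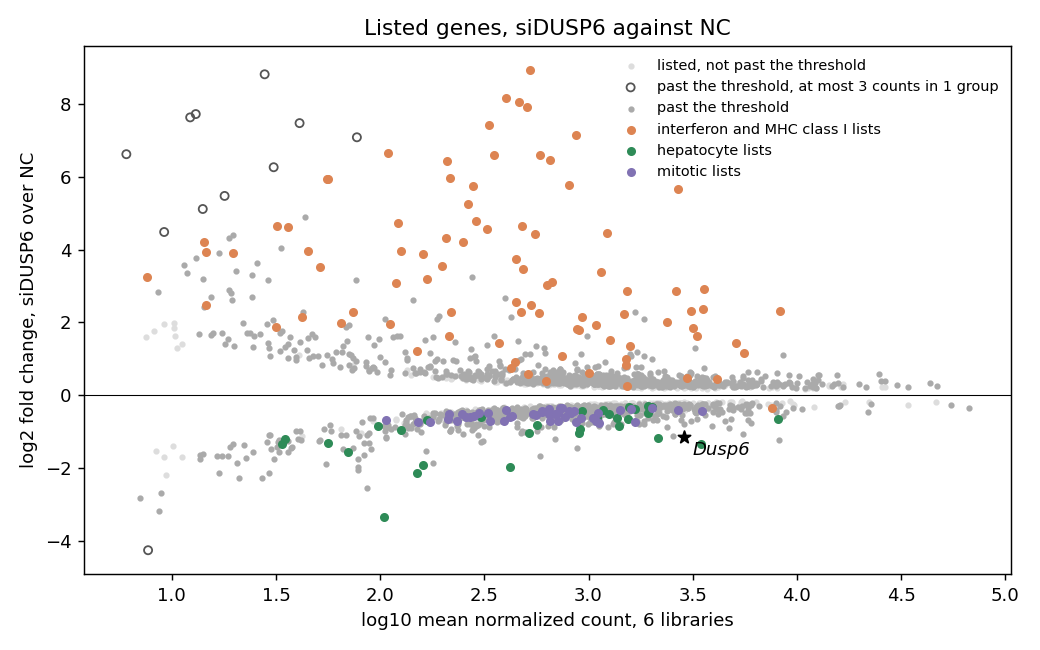
Log2 fold change of siDUSP6 over NC against the log10 mean normalized count of the listed genes that passed the filter on low counts, with 3 groups of lists in colour, Dusp6 as a star and genes with at most 3 counts in 1 group as open circles. Rises of at least 3 are mostly genes of the interferon and MHC class I lists, while the mitotic genes form a narrow band just below 0.

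Interferon-stimulated genes made up most of the rises of at least 3 on the log2 scale. Of the 198 genes that rose by at least 1 on the log2 scale 85 were in the interferon or MHC class I lists, of the 69 that rose by at least 3, 51, and of the 27 that rose by at least 5, 25. Of 166 members of these 9 lists 94 were higher and 1 lower, against 6.5% and 5.75% of all tested genes. These lists were compiled with earlier results of these data known, so the counts describe the response and are no independent evidence of it.

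**Figure D3:**
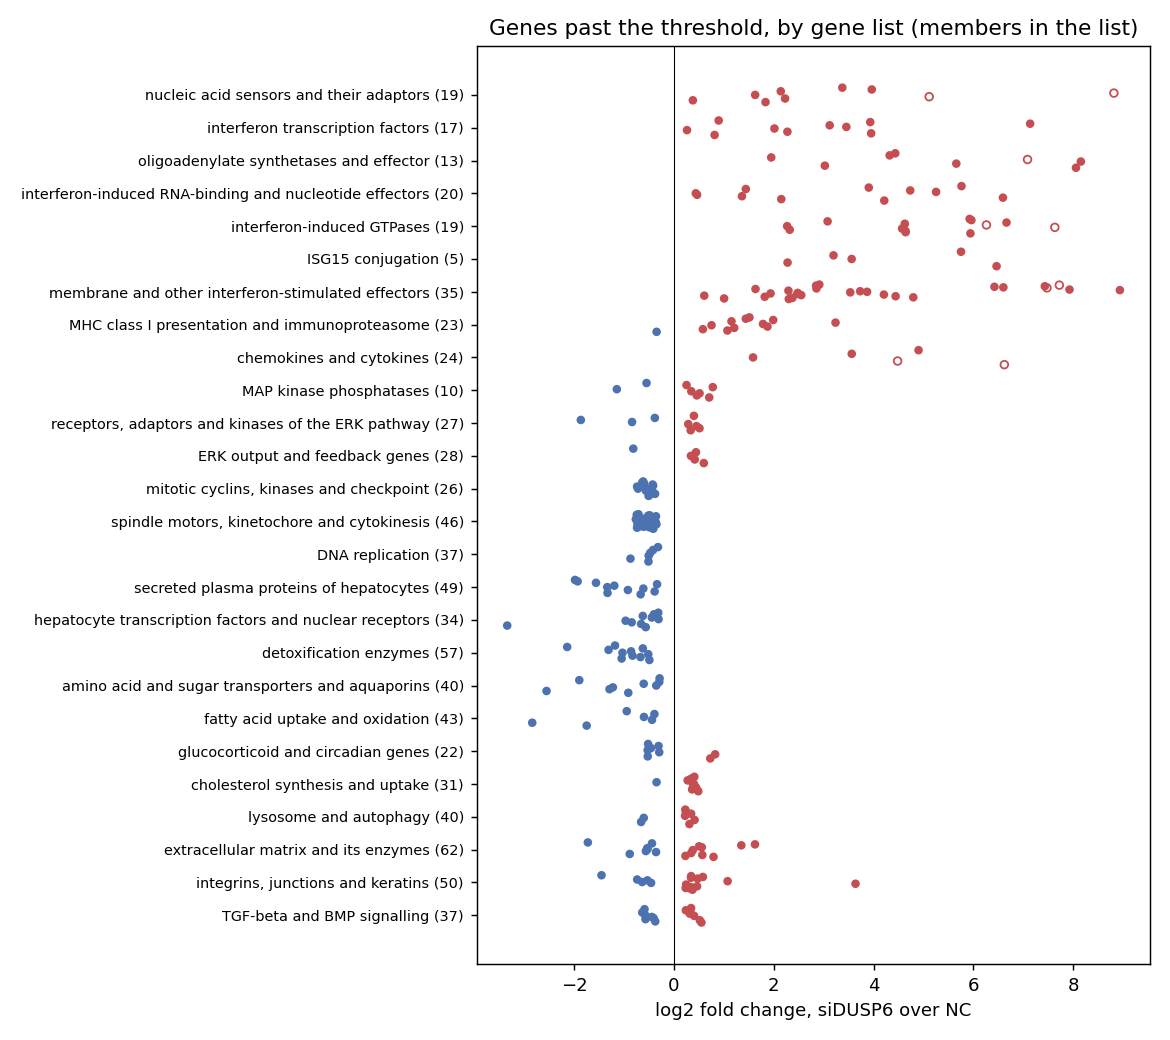
Log2 fold changes (x axis) of the genes past the threshold in 26 gene lists, higher in red and lower in blue, with the number of list members in parentheses and open circles for genes with at most 3 counts in NC, whose fitted value is imprecise. Interferon lists spread far to the right, and the cell cycle and hepatocyte lists lie to the left of 0.

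Sequences before the transcription start of several of these genes hold the core of the interferon-stimulated response element, and they are shown to place the motif in genes that rose. The core searched was GAAA, any 2 bases and GAAA again, on both strands, in RefSeq promoters (GRCm38.p6) from 250 bases before to 50 after the first start of each gene. It was present in 943 of 27025 promoters (3.49%), and in 34 of the 66 interferon-list genes past the threshold that matched the promoter table (51.5%). Each line gives 60 bases from 5′ to 3′ on the gene's strand, with the motif on either strand in capitals.
Isg15 (chr4:156200862-156200921, minus strand): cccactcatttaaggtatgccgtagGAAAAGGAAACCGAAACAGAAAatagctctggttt
Ifit1 (chr19:34640760-34640819, plus strand): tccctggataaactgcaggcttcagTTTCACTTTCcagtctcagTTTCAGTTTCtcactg
Oas3 (chr5:120777700-120777759, minus strand): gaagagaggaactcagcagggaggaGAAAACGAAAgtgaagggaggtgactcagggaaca
Bst2 (chr8:71537568-71537627, minus strand): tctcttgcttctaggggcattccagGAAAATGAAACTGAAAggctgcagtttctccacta
Stat2 (chr10:128270251-128270310, plus strand): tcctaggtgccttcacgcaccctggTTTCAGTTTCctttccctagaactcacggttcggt
Gbp2 (chr3:142620579-142620638, plus strand): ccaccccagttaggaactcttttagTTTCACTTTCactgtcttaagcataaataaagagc
Apol9b (chr15:77729010-77729069, plus strand): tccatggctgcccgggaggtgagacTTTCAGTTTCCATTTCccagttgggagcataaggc

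Among genes that rose by at least 1 on the log2 scale but stood in none of these lists, 10 of 74 matched promoters held the core (13.5%). It was in 22 of 525 promoters of genes that rose by less than 1 (4.19%) and in 25 of 590 promoters of genes that fell (4.24%), both close to the share of all promoters. A match describes letters and is no evidence of binding, and a promoter without one may hold other forms of the element.

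The listed RNA and DNA sensors rose together. Of 19 sensors and adaptors 9 were listed and 9 were higher (median log2 fold change 2.23, against 0.23 over all genes that passed the filter on low counts). Rigi, the gene of the RNA helicase RIG-I, had 226, 185 and 196 normalized counts in NC and 2517, 2171 and 1614 in siDUSP6 (3.37 ± 0.16, SE, edgeR adjusted p = 1.87e-07). Ifih1, which encodes MDA5, a sensor of long double-stranded RNA, had 19.1, 10.5 and 15.6 and 286, 221 and 206 (3.96 ± 0.24, SE, edgeR adjusted p = 1.34e-06). Eif2ak2, the gene of the RNA-dependent kinase PKR that halts translation, had 545, 508 and 515 and 2929.5, 2434 and 1982 (2.23 ± 0.13, SE, edgeR adjusted p = 8.46e-07). In all 3 genes the lowest siDUSP6 library was several times above the highest NC library. Tlr3, a sensor of double-stranded RNA in endosomes, rose by 1.63 ± 0.15 and Trim25, a ubiquitin ligase that acts on RIG-I, by 1.84 ± 0.10 (log2, SE), while the kinase gene Ikbke rose by 0.38. The helicase gene Ddx60 had 0 counts in NC and 171 in siDUSP6, at least 57-fold higher when NC is set to 3 counts in all, the limit that a count of 0 allows. Zbp1, a sensor of Z-form nucleic acids, had 2 and 84 counts, a ratio of 42 (exact binomial 95% interval 11.3 to 352, counting error only). The adaptor and signalling genes Mavs, Tbk1, Traf3, Ticam1 and Myd88, the cytosolic DNA sensor gene Mb21d1 (cGAS) and its partner Tmem173 (STING) were not listed. Of 15 genes for interferons, their receptors, Janus kinases and SOCS inhibitors 0 were listed, Ifnb1, Ifnl2, Ifnl3, Ifnar1 and Ifnlr1 included.

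Most of the listed transcription factors of the interferon response were higher. Of 17 such factors 12 were listed and 10 were higher (median 2.70). Irf7, the factor that amplifies interferon production, had 15, 14.7 and 6.84 normalized counts in NC and 2009, 1840.4 and 1319.7 in siDUSP6, and its siDUSP6 replicate 3 was the lowest of the group. The DNA-binding partner Irf9 had 116, 142 and 152 in NC and 1323, 1253 and 1003 in siDUSP6 (3.12 ± 0.14, SE, edgeR adjusted p = 1.01e-07). Its partner Stat2 had 844, 976 and 1008 and 4433, 3922 and 3073 (2.01 ± 0.13, SE, edgeR adjusted p = 1.61e-06). Both were above NC in every siDUSP6 library, from different NC levels. Irf5 rose by 3.93 ± 0.64, Irf1 by 0.90 ± 0.15 and Stat3 by 0.26 ± 0.07 (log2, SE). Irf2, Irf3 and Irf8 were not listed. The nuclear body genes Sp100 and Pml rose by 3.95 ± 0.37 and 0.82 ± 0.10 (log2, SE). Irf9 overlaps Rnf31 on the same strand and Irf7 overlaps Phrf1 on the opposite strand, which the counts may not separate.

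The oligoadenylate synthetases, which make an antiviral second messenger, had the highest median of these lists, at 5.05, with 8 of 13 members listed and 8 higher. Oas3 rose from 73.2, 101 and 139 normalized counts in NC to 6341, 5443 and 4067 in siDUSP6 (5.66 ± 0.22, SE, edgeR adjusted p = 6.33e-08). Oasl1, an OAS-like protein without synthetase activity, was already present in NC, at 94.3, 151 and 167, and reached 1309, 1175 and 879 (3.02 ± 0.20, SE, edgeR adjusted p = 2.42e-06). Oas2 was nearly absent in NC, at 5.01, 0 and 2.93, and had 1002, 760.0 and 642 in siDUSP6. Oas1b and Oas1c rose by 4.32 ± 0.32 and 1.95 ± 0.20 (log2, SE). For Oas1a and Oas1g, 57.6% and 45.7% of the 50-base words of their transcripts occur in other genes, and which copy the reads came from is uncertain.

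Of 20 RNA-binding and nucleotide effectors 14 were listed and 11 were higher (median 3.90). Ifit1, which binds RNA without the host cap methylation, had 29.1, 19.98 and 37.1 normalized counts in NC and 2023, 1531 and 1170.4 in siDUSP6 (5.76 ± 0.25, SE, edgeR adjusted p = 9.1e-08). Rsad2, the gene of viperin, a radical SAM enzyme that makes a chain-terminating nucleotide, had 8.02, 5.26 and 7.82 and 911, 635 and 534 (6.59 ± 0.29, SE, edgeR adjusted p = 1.01e-07). Adar, an RNA deaminase that edits double-stranded RNA, was abundant in NC, at 844, 958 and 860.2, and reached 2475, 2465 and 1913 (1.36 ± 0.11, SE, edgeR adjusted p = 1.03e-05). The ranges of all 3 genes were far apart between the groups. Slfn2 rose by 2.15 ± 0.14 and Slfn8 by 4.21 ± 0.63, and the RNA exonuclease gene Isg20 and the zinc-finger gene Zc3hav1 by 0.44 and 0.47 (log2). Samhd1, Slfn9 and Apobec3 were listed and did not pass. Other genes hold 51.2% of the words of Ifit3 and 45% of those of Ifit3b.

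Of 19 interferon-induced GTPases, which attack intracellular microbes, 16 were listed, 13 passed the filter on low counts and 13 were higher (median 4.64). Irgm1, a GTPase of the IRG family that governs the others, was the most abundant in NC, at 995, 1012 and 1103 normalized counts, and reached 6124, 5471 and 3939 in siDUSP6 (2.32 ± 0.14, SE, edgeR adjusted p = 1.09e-06). Its relative Igtp had 24.1, 32.6 and 22.5 and 795, 639.8 and 448 (4.57 ± 0.25, SE, edgeR adjusted p = 5.52e-07). The antiviral dynamin-like gene Mx1 had 2.01, 2.10 and 0.978 and 129, 104 and 96.2 (5.92 ± 0.37, SE, edgeR adjusted p = 1.55e-06). In each of these genes siDUSP6 replicate 3 was the lowest of its group and still above NC. Gbp3, a guanylate-binding protein, had 0, 1.05 and 4.89 in NC and 276, 229.9 and 145 in siDUSP6. Gbp9, Gbp2 and Gbp4 rose by 2.27 ± 0.16, 3.08 ± 0.33 and 4.63 ± 0.44 (log2, SE). Iigp1 had 0 counts in NC and 75 in siDUSP6, at least 25-fold higher by the same limit, and Gbp7 had 2 and 187, a ratio of 93.5 (exact binomial 95% interval 25.5 to 778). Other genes hold 81.2% and 86.6% of the words of Tgtp1 and Tgtp2, so which copy their reads came from is uncertain. Igtp overlaps Irgm2 on the same strand.

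Each member of the ISG15 conjugation list, 5 of 5, was higher (median 3.56). ISG15 is a ubiquitin-like protein that is attached to other proteins. Isg15 itself had 8.02, 9.46 and 12.7 normalized counts in NC and 655, 549 and 447 in siDUSP6 (5.75 ± 0.23, SE, edgeR adjusted p = 8.43e-08). The activating enzyme gene Uba7 had 25.1, 31.5 and 42 and 398, 277 and 235 (3.20 ± 0.25, SE, edgeR adjusted p = 1.07e-05), and the conjugating enzyme gene Ube2l6 had 27.1, 32.6 and 33.2 and 437, 347 and 317 (3.56 ± 0.19, SE, edgeR adjusted p = 4.13e-07). The ligase gene Herc6 rose by 2.28 ± 0.29 (log2, SE). Usp18, the protease that removes ISG15 and also restrains the interferon receptor, had 17, 15.8 and 10.8 in NC and 1651, 1266 and 949.9 in siDUSP6. The whole conjugation and removal set thus stood above NC in every siDUSP6 library.

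Of 35 other interferon-stimulated effectors 29 were listed and 27 were higher (median 2.91). Bst2, which tethers budding virus to the cell surface, had 709, 880.1 and 924 normalized counts in NC and 6910.1, 6794 and 5232 in siDUSP6 (2.91 ± 0.13, SE, edgeR adjusted p = 9.1e-08). The E3 ligase gene Rnf213 reached the highest level of these, from 3039.7, 2807 and 2524 to 16291, 14275 and 10721 (2.30 ± 0.13, SE, edgeR adjusted p = 9.49e-07). Ifi27 rose from 319, 413 and 383 to 2819, 2790.0 and 2425 (2.85 ± 0.11, SE, edgeR adjusted p = 6.33e-08). These 3 were expressed in NC, so their folds rest on counts in both groups. Xaf1, which encodes a partner of the apoptosis inhibitor XIAP, was low in NC, at 11, 12.6 and 11.7, and reached 1418, 1154 and 894 (6.60 ± 0.23, SE, edgeR adjusted p = 6.33e-08). The ADP-ribosylation genes Parp14, Parp9, Parp12 and Parp10 and the Parp9 partner Dtx3l rose by 4.21, 2.48, 2.47, 1.94 and 2.55 (log2). Parp9 and Dtx3l overlap on opposite strands, and the library kit is not stated to keep strand, so their reads cannot be told apart with certainty. The DNA-sensing family members Ifi203, Mndal and Ifi204 rose by 4.44 ± 0.19, 4.80 ± 0.25 and 1.82 ± 0.19 (log2, SE), where Ifi203 and Mndal overlap on the same strand. The largest fitted rises fell on genes at a few counts in NC. Apol9a, an apolipoprotein L family gene, had 3.01, 0 and 8.80 and 1309, 973 and 751, and Ifi44 had 3.01, 6.31 and 1.96 and 869.9, 595 and 517. Ifitm3, which blocks viral fusion, had 0 counts in NC and 80 in siDUSP6, at least 26.7-fold higher, and Phf11d had 1 and 250, a ratio of 250 (exact binomial 95% interval 44.5 to 9910).

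Within the siDUSP6 group most interferon genes ranked the libraries the same way. Of the 83 interferon-list genes that were higher, siDUSP6 replicate 1 had the highest value in 73 (88.0%) and siDUSP6 replicate 3 the lowest in 77 (92.8%). The other 757 higher genes gave 24.0% and 28.1%, and in NC the same 83 genes gave 32.5% and 25.3%. The median deviation from the group mean was 0.28 in siDUSP6 replicate 1 and -0.29 in siDUSP6 replicate 3 (log2). Dusp6 had 1742, 1833 and 1775 in the same libraries, values too close together to give an order, and a relation between the 2 was not tested. The oligoadenylate synthetases had median log2 ratios to NC of 5.25, 5.09 and 4.70 in siDUSP6 libraries 1 to 3 and the GTPases 4.86, 4.69 and 4.09. The difference between siDUSP6 libraries was thus small beside that between the groups.

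**Figure D4:**
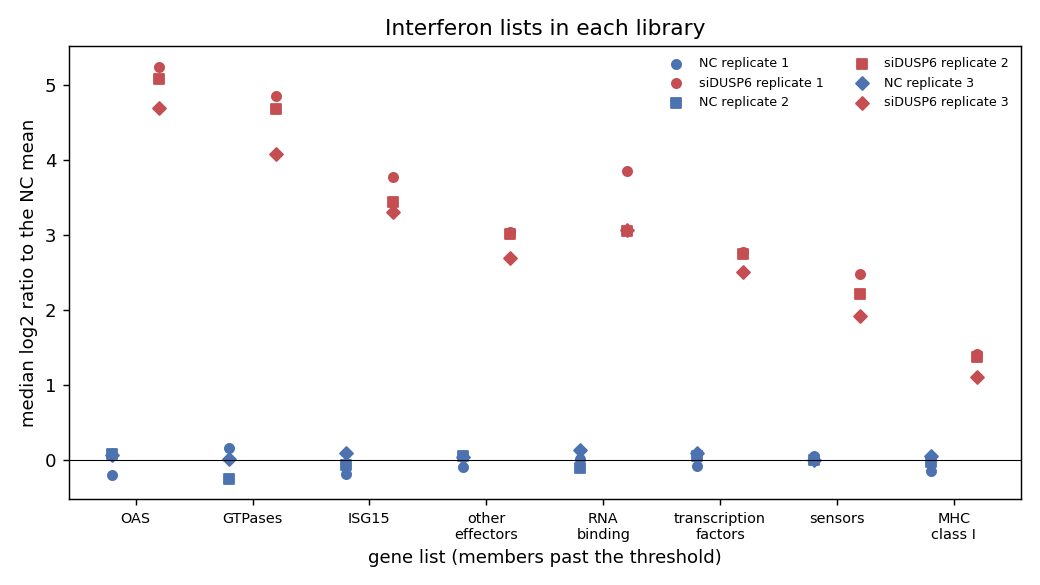
Median log2 ratio to the NC mean (y axis) of the genes past the threshold in 8 gene lists, for each NC library (blue) and siDUSP6 library (red), with the replicate number as symbol. In 7 of the lists siDUSP6 replicate 1 is highest and replicate 3 lowest, and in the RNA-binding list replicates 2 and 3 are level.

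Some of the large rises lay near each other in the genome. With gaps of at most 200 kb between neighbours, 51 of the 197 positioned genes that rose by at least 1 on the log2 scale stood in 11 runs of 3 or more, and 0 of the 85 that fell by as much. Genes in between that changed by less or were not listed were passed over, and no rate over all genes was computed. On chromosome 1, from 173723427 to 174031810 (mm10), 8 genes of the Ifi200 family formed 1 run, Ifi207 to Ifi205. On chromosome 7, from 104244457 to 104507849, 7 genes formed a run of Trim genes with Trim34a, Trim5, Trim12c, Trim30a and Trim30d. The Oas run on chromosome 5 (120730333 to 120907521) held 6 genes, the Irgm1 to Ifi47 run on chromosome 11 (48861968 to 49096974) 6 and the Ifit run on chromosome 19 (34550694 to 34650009) 5. Neighbours in such families share sequence, so some of their counts are not independent. Not every run is of a gene family. That on chromosome 9 (108953586 to 109057777) held Col7a1, Pfkfb4 and Shisa5, and that on chromosome 14 held Psme2, Rnf31 and Irf9.

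MHC class I genes, which present peptides at the cell surface, rose by smaller factors. Of 23 members of the presentation list 12 were listed, 11 higher (median 1.44) and 1 lower. The authors' deposited table calls 7.76% of all tested genes higher and 7.19% lower, and 10 of these 23 genes higher. B2m, the light chain, had 3404, 3554 and 3422 normalized counts in NC and 8389, 7823 and 6895 in siDUSP6 (1.15 ± 0.08, SE, edgeR adjusted p = 2.78e-06). The heavy chain gene H2-D1 had 2387, 2919 and 2892 and 7704, 7851 and 6708 (1.44 ± 0.09, SE, edgeR adjusted p = 1.95e-06). Tapbp, the gene of tapasin, which loads peptides, had 351, 386 and 478 and 1596, 1389 and 1207 (1.79 ± 0.13, SE, edgeR adjusted p = 6.21e-06). All 3 were above NC in each siDUSP6 library. The peptide transporter gene Tap2 rose by 3.24 ± 0.75, the class I activator gene Nlrc5 by 1.88 ± 0.35, the immunoproteasome gene Psmb10 by 1.21 ± 0.17 and its regulators Psme1 and Psme2 by 0.58 ± 0.10 and 1.07 ± 0.10 (log2, SE). The member that fell was Pdia3, a chaperone that also belongs to the general folding machinery of the endoplasmic reticulum, by 0.35.

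Chemokine, NF-kB and acute-phase genes gave fewer calls. Of 24 chemokines and cytokines 6 were listed, 5 higher and 0 lower, where the authors' deposited table calls 3 higher and 1 lower. Ccl2, which attracts monocytes, had 80.2, 87.3 and 99.7 normalized counts in NC and 295, 246 and 263 in siDUSP6 (1.59 ± 0.15, SE, edgeR adjusted p = 4.78e-05). Cxcl10, an interferon-induced ligand of CXCR3, had 1.00, 4.21 and 2.93 and 94.5, 87.5 and 70.1 (4.90 ± 0.39, SE, edgeR adjusted p = 1e-05). Ccl5 had 2 and 54 counts, a ratio of 27 (exact binomial 95% interval 7.12 to 229), and the death ligand gene Tnfsf10 (TRAIL) had 0 and 37, at least 12.3-fold higher by the limit that a count of 0 allows. Counts of Cxcl10, Ccl5 and Tnfsf10 were low in every NC library. Tnf, Il6, Il1b, Cxcl1 and Cxcl2 were not listed. Of 20 NF-kB subunits and targets 3 were higher (against 6.5% of all tested genes), Nfkb2, Relb and Ikbkb, by 0.41, 0.38 and 0.27 on the log2 scale. They numbered 0 without siDUSP6 replicate 2 and 1 without NC replicate 2, NC replicate 3 or siDUSP6 replicate 3, and 1 with either scaling over the listed genes. Of 24 acute-phase and complement genes 3 were higher and 4 lower, against 6.5% and 5.75% of all tested genes. Lbp, which carries bacterial lipopolysaccharide, fell from 9762, 10783 and 14175 to 4598, 5015 and 5044 (-1.24 ± 0.12, SE, edgeR adjusted p = 4.87e-05), and the complement protease gene Masp1 by 0.62. C4b and Lcn2 rose by 3.29 ± 0.43 and 0.83 ± 0.21 (log2, SE), with 34.6% of the words of C4b held by other genes. Single libraries changed these counts, with 1 higher without NC replicate 1, NC replicate 2 or siDUSP6 replicate 2, and 2 lower in the 5 fits without any library other than NC replicate 1. Hp, the gene of haptoglobin, had 37.1, 37.9 and 77.2 and 16.7, 26.9 and 20.04 and passed in 1 of these fits.

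Genes of mitosis fell together, by small amounts, where 5.75% of all tested genes were lower. Of 26 mitotic cyclins, kinases and checkpoint genes 15 were listed and 15 were lower (median -0.51), and of 46 genes of the spindle, kinetochore and cytokinesis 30 were listed and 30 were lower (median -0.53), with 0 higher. Bub1b, a kinase of the spindle checkpoint, had 885, 927 and 863 normalized counts in NC and 575, 515 and 537 in siDUSP6 (-0.72 ± 0.08, SE, edgeR adjusted p = 0.000288). Ccna2, the cyclin of S phase and mitotic entry, had 1177, 1116 and 1043 and 715, 739.8 and 722 (-0.62 ± 0.08, SE, edgeR adjusted p = 0.00058). Ccnb1, the partner of CDK1, had 1329.8, 1290.2 and 1233 and 933, 775 and 777 (-0.63 ± 0.09, SE, edgeR adjusted p = 0.00118), where 23.4% of its words occur in other transcripts. No siDUSP6 library reached the NC range in these genes. Cdk1 itself fell by 0.43, the phosphatase gene Cdc25c by 0.74, the checkpoint genes Bub1, Mad2l1 and Ttk by 0.57, 0.44 and 0.56, and the transcription factor gene Foxm1 by 0.38 (log2).

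Among structural genes of mitosis, Cenpf, a kinetochore protein, had 1649, 1456 and 1151 normalized counts in NC and 838, 868 and 803 in siDUSP6 (-0.76 ± 0.12, SE, edgeR adjusted p = 0.00184). Aspm, a spindle pole protein, had 925, 828 and 690.1 and 505, 482 and 499 (-0.72 ± 0.11, SE, edgeR adjusted p = 0.00177), and Prc1, which bundles microtubules of the midzone, had 798, 784 and 701 and 536, 535 and 532 (-0.51 ± 0.09, SE, edgeR adjusted p = 0.00353). The siDUSP6 values were level while the NC values fanned out, with NC replicate 1 the highest. Over the 45 lower mitotic genes NC replicate 1 was highest in 32 and NC replicate 3 lowest in 37, and the groups still did not overlap in these 3 genes. The motor genes Kif11, Kif18a and Kif20a fell by 0.71, 0.74 and 0.48, the condensin gene Smc4 by 0.74, Top2a by 0.43 and the proliferation marker Mki67 by 0.41 (log2). Without siDUSP6 replicate 2, siDUSP6 replicate 3 or NC replicate 2, 8, 8 and 9 of the 15 cyclin and kinase genes passed, and 15, 17 and 16 of the 30 spindle genes, with 17 without siDUSP6 replicate 1. The direction was the same in each of these fits for every called gene.

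Promoters of mitotic genes often hold a CCAAT box and a cell cycle homology region, known binding sites of NF-Y and of the DREAM and MuvB complexes. The motifs searched were CCAAT and TTTGAA on both strands in the same 300-base RefSeq promoters. TTTGAA was in 23 of the 35 matched promoters of the lower mitotic genes (65.7%), against 18.1% of all 27025 promoters and 18.8% of 590 promoters of genes that fell. CCAAT was in 26 of the 35 (74.3%), against 37.9% of all promoters and 45.1% of those of genes that fell. In at least 7 of these 35 genes both motifs lay in the 100 bases before the start. Some genes were left out of this count, so it is a minimum. Of these 7 genes 4 are shown from the gene's strand with the motifs on either strand in capitals, written 5′ to 3′.
Cdk1 (chr10:69352913-69353012, minus strand): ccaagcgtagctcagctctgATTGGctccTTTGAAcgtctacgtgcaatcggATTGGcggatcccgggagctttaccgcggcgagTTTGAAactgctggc
Top2a (chr11:99024190-99024289, minus strand): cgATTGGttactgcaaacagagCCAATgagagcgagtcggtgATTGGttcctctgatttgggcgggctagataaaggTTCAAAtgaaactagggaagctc
Ube2c (chr2:164769829-164769928, plus strand): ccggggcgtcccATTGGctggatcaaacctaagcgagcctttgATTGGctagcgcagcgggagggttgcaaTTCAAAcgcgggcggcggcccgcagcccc
Kif11 (chr19:37376282-37376381, plus strand): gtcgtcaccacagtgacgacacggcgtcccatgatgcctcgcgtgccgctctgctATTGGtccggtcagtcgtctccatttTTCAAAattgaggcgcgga

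These matches describe letters and not binding. The genes that rose by less than 1 on the log2 scale held TTTGAA in 8.76% of 525 promoters, less than the share of all promoters.

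Genes of DNA synthesis were lower in fewer cases. Of 37 replication genes 8 were listed and 6 were lower (median -0.49), with 0 higher. Rrm2, the regulated subunit of ribonucleotide reductase, had 3046, 3024 and 3133 normalized counts in NC and 1538, 1776 and 1725 in siDUSP6 (-0.87 ± 0.07, SE, edgeR adjusted p = 1.7e-05). Its partner Rrm1 had 1870.4, 1755 and 1608 and 1203, 1229.5 and 1257 (-0.50 ± 0.08, SE, edgeR adjusted p = 0.00182). Both subunits were lower in each siDUSP6 library. The helicase subunit gene Mcm4 fell by 0.32 and the polymerase gene Pola1 by 0.47, and these passed in 2 and 3 of the fits that left out a library. Without NC replicate 2, siDUSP6 replicate 2 or siDUSP6 replicate 3, 2 replication genes passed, and 3 without siDUSP6 replicate 1. Of 24 genes of the G1 and S phases 2 were higher and 1 lower, shares near those of all tested genes (6.5% and 5.75%). The CDK inhibitors Cdkn1a (p21) and Cdkn2b were higher, by 0.35 ± 0.06 and 0.44 ± 0.08, and Rbl1 was lower, at -0.51 ± 0.15 (log2, SE). Rbl1 is 1 of the 2 called genes whose groups overlap, at 553, 531 and 399 in NC and 402, 327 and 311 in siDUSP6, and it did not pass without NC replicate 1, NC replicate 2, siDUSP6 replicate 2 or siDUSP6 replicate 3. Of 20 p53 targets 4 were higher and 3 lower, against 6.5% and 5.75% of all tested genes. Among them were Trp53inp1 at -0.76 ± 0.13 and Plk3 at 0.44 ± 0.09 (log2, SE). Without siDUSP6 replicate 2, 1 p53 target was higher and 1 lower, and 1 was lower without NC replicate 2 or siDUSP6 replicate 1. The linker histone gene H1f0 fell from 5076, 4797 and 5176 to 3073, 2719.7 and 2520.2 (-0.86 ± 0.08, SE, edgeR adjusted p = 4.17e-05). Of 27 genes of cell death 3 were higher and 1 lower, against 6.5% and 5.75% of all tested genes. The share of lower genes was thus no more than over all tested genes. Mlkl, the effector of necroptosis, rose by 0.73 ± 0.12, and Bmf was lower, at -1.01 ± 0.15 (log2, SE). Without siDUSP6 replicate 2, 1 gene of this list was higher.

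Secreted products of hepatocytes were lower where they were listed. Of 49 plasma protein genes 11 were listed, 11 lower and 0 higher (median -1.19), and 7 passed without siDUSP6 replicate 2. The share of lower genes over all tested genes was 5.75%. Alb, the gene of albumin, had 612, 628 and 782 normalized counts in NC and 128, 201 and 183 in siDUSP6 (-1.98 ± 0.16, SE, edgeR adjusted p = 1.59e-05). Ttr, which carries thyroid hormone, had 222, 223 and 319.6 and 43.3, 58.7 and 99.2, and Cp, the copper protein ceruloplasmin, had 5298, 4217 and 5324 and 2065, 1959 and 1886 (-1.33 ± 0.09, SE, edgeR adjusted p = 3.81e-06). The siDUSP6 values of all 3 were below those of NC, with siDUSP6 replicate 1 the lowest for Alb and Ttr but the highest of its group for Cp. Apoa1, the main protein of HDL, had 77.2, 76.8 and 161 and 21.6, 46.2 and 39.1 (-1.56 ± 0.35, SE, edgeR adjusted p = 0.0158), so 1 NC library was far above the other 2. Itih2, Igfbp4 and Rbp4 changed by -0.92 ± 0.10, -0.67 ± 0.12 and -0.38 ± 0.08 (log2, SE). For Trf 59.4% of the words occur in other genes. The genes of apolipoprotein B, fibrinogen, prothrombin and alpha-fetoprotein (Apob, Fga, F2, Afp) were among the 38 that were not listed.

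The listed transcription factors of the hepatocyte were mostly lower. Of 34 factors and nuclear receptors 11 were listed, 10 lower and 0 higher (median -0.59), while the authors' deposited table has 10 lower and 1 higher. The edgeR test called 5.75% of all tested genes lower. Atoh8, a helix-loop-helix factor, had 145, 170.4 and 253 normalized counts in NC and 13.8, 21.2 and 21 in siDUSP6, the largest fall of the list. Ppara, the receptor that drives fatty acid oxidation, had 163, 166 and 168 and 82.7, 77.9 and 94.2 (-0.97 ± 0.15, SE, edgeR adjusted p = 0.00218). Nr1h4, the bile acid receptor FXR, had 1557, 1518 and 1923 and 1088, 1079 and 1080.2 (-0.62 ± 0.10, SE, edgeR adjusted p = 0.00174). The groups did not overlap in these genes. The coactivator gene Ppargc1a changed by -0.84 ± 0.24, Onecut2 by -0.66 ± 0.11, Klf15 by -0.56 ± 0.08 and Foxa2 by -0.40 ± 0.08 (log2, SE). Hnf4a, the central factor of the hepatocyte programme, had 2017, 2204 and 2516 in NC and 1780.2, 1774 and 1874 in siDUSP6 (-0.31 ± 0.09, SE, edgeR adjusted p = 0.0367), and passed in 1 of the 6 fits that left out a library.

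**Figure D5:**
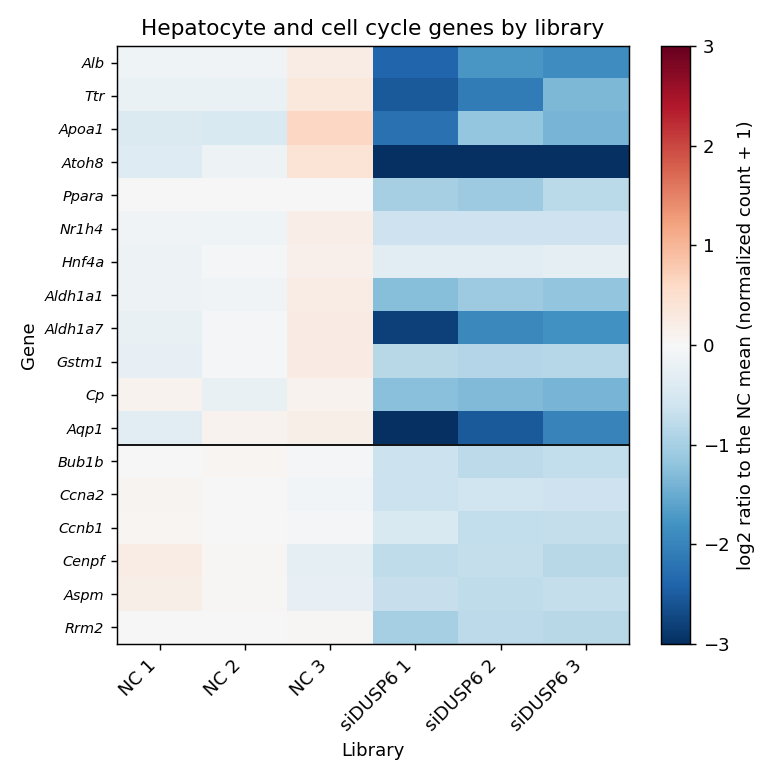
Log2 ratio to the NC mean (colour, normalized count + 1, colours end at -3 and 3) of 12 hepatocyte and transporter genes (above the line) and 6 cell cycle genes (below it) in each library. All 3 siDUSP6 columns are blue for each gene, with larger falls in Alb, Ttr, Atoh8, Aldh1a7 and Aqp1 than in the cell cycle genes.

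Of 57 detoxification enzymes 13 were listed, 11 lower and 0 higher (median -0.86), while the authors' deposited table has 12 lower and 1 higher. The retinal dehydrogenase gene Aldh1a1 had 2707, 2772 and 3515 normalized counts in NC and 1236, 1412 and 1326 in siDUSP6 (-1.18 ± 0.10, SE, edgeR adjusted p = 2.6e-05), and its relative Aldh1a7 had 211, 236 and 289 and 34.4, 63.5 and 69.1. The sulfotransferase gene Sult1d1 had 1352, 962 and 1319 and 615, 545 and 601 (-1.05 ± 0.13, SE, edgeR adjusted p = 0.000336). All were lower in each siDUSP6 library. The glutathione transferase genes Gsta3, Gstm1 and Gstm2 changed by -1.31 ± 0.29, -0.86 ± 0.11 and -1.03 ± 0.16, and the glucuronosyltransferase gene Ugt2b34 by -0.83 ± 0.10 (log2, SE). Both subunits of the enzyme that starts glutathione synthesis fell, Gclc from 10480.1, 9617 and 10720.4 to 7025, 6749 and 6808 (-0.58 ± 0.06, SE, edgeR adjusted p = 0.000165) and Gclm by 0.78 on the log2 scale. Of 27 NRF2 targets 3 were lower, in every fit that left out a library as well, and Hmox1, the gene of haem oxygenase, rose by 0.42 ± 0.09 (log2, SE). Over all tested genes 5.75% were lower and 6.5% higher.

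Of 40 amino acid and sugar transporters and aquaporins 10 were listed, 9 lower and 0 higher (median -0.91). The authors' deposited table has 9 lower and 1 higher. Aqp1, a water channel, had 116, 159.8 and 169 normalized counts in NC and 14.8, 25 and 36.1 in siDUSP6, with siDUSP6 replicate 1 the lowest. The glucose transporter gene Slc2a2 (GLUT2) had 45.1, 32.6 and 45 and 17.7, 16.4 and 16 (-1.29 ± 0.28, SE, edgeR adjusted p = 0.0139). Slc7a5, an abundant transporter of large neutral amino acids, fell by 0.29. Slc6a18, a transporter of neutral amino acids, had 57.2, 84.1 and 118 and 18.7, 31.7 and 19 (-1.89 ± 0.33, SE, edgeR adjusted p = 0.00365). The list was reduced to 2 lower genes without siDUSP6 replicate 2 and to 4 without siDUSP6 replicate 3. Slco2a1, the prostaglandin transporter, had 6717, 6969.6 and 8573 and 3349.7, 3561 and 3799 (-1.06 ± 0.09, SE, edgeR adjusted p = 2.94e-05), and the organic anion transporter gene Slco1a6 had 140.4, 104 and 133 and 20.7, 39.4 and 31.1. Of 32 transporters of organic anions, drugs and bile acids 2 were higher, a share near the 6.5% of all tested genes, and 3 lower. Abcg2 fell by 0.51, while Abcc1 and Abca3 rose by 0.27 and 0.30 (log2), which passed in 3 of 6 fits that left out a library and under neither scaling over the listed genes.

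Lipid and amino acid metabolism gave small changes. Of 43 genes of fatty acid uptake and oxidation 9 were listed and 6 were lower (median -0.77), and 3 passed without NC replicate 2, NC replicate 3, siDUSP6 replicate 2 or siDUSP6 replicate 3. The thioesterase gene Acot1 had 1019.9, 1147 and 1166 normalized counts in NC and 688, 750.4 and 763 in siDUSP6 (-0.60 ± 0.09, SE, edgeR adjusted p = 0.00118), and the peroxisomal oxidase gene Acox2 changed by -0.94 ± 0.16 (log2, SE). The fatty acid uptake gene Cd36 had 22.1, 16.8 and 24.4 and 8.86, 4.81 and 5.01, low counts that passed in 2 of the fits that left out a library. Of 31 genes of cholesterol synthesis and uptake 10 were listed, 8 higher (median 0.40) and 1 lower, Ebp, which passed in 1 of 6 fits without single libraries. Npc1, which exports cholesterol from lysosomes, had 1319.8, 1545 and 1531 and 1979, 2092 and 2097 (0.49 ± 0.08, SE, edgeR adjusted p = 0.00255), and the SREBP regulator genes Insig1 and Insig2 and the synthesis gene Lss rose by 0.45, 0.37 and 0.35. The count rested on single libraries: 1 gene stayed higher when siDUSP6 replicate 3 was left out, 2 for siDUSP6 replicate 2 and 3 for NC replicate 2, with 4 under median-of-ratios scaling over the listed genes. Fatty acid and triglyceride synthesis split into 3 higher and 4 lower, with Gpam at -0.57 ± 0.07, the lipase inhibitor gene G0s2 at -0.65 ± 0.10 and Fasn at 0.32 ± 0.09 (log2, SE), and this became 1 higher and 2 lower without NC replicate 2, siDUSP6 replicate 2 or siDUSP6 replicate 3. Of 43 genes of amino acid and urea metabolism 7 were lower and 0 higher, and 3 without NC replicate 2, siDUSP6 replicate 2 or siDUSP6 replicate 3. Glul, the gene of glutamine synthetase, had 5039, 5819 and 7542 and 3152, 3384 and 3344 (-0.90 ± 0.12, SE, edgeR adjusted p = 0.000757). The genes of the paralogous enzymes that set fructose 2,6-bisphosphate moved apart, Pfkfb4 by 1.60 ± 0.18 and Pfkfb3 by -0.77 ± 0.14 (log2, SE). Of 65 genes of the TCA cycle and respiratory chain 4 were lower, a share near the 5.75% of all tested genes. Among them were Idh2 and Atp5c1, by 0.55 and 0.34. Without siDUSP6 replicate 2 or 3, 2 were left, and the deposited table has 7 lower and 1 higher.

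Genes of adhesion to the basement membrane moved in both directions. Of 50 integrins, junction genes and keratins 22 were listed, 13 higher (median 0.35) and 5 lower (median -0.63). The shares over all tested genes were 6.5% and 5.75%. Itgb4, the integrin subunit of hemidesmosomes, had 1030.0, 1236 and 1302 normalized counts in NC and 2361, 2567 and 2600.3 in siDUSP6 (1.08 ± 0.09, SE, edgeR adjusted p = 2.13e-05). Its partner Itga6 had 2989, 3236 and 2778 and 4349, 4194 and 3973 (0.48 ± 0.07, SE, edgeR adjusted p = 0.00178), and Itga3, also a laminin receptor, had 18797, 20284 and 20238 and 28659.7, 30271 and 29842 (0.58 ± 0.06, SE, edgeR adjusted p = 0.000133). All 3 were above NC in each siDUSP6 library, and Itga3 was among the most abundant genes that rose by at least 0.5. Cldn4, a tight junction gene, rose from a few counts, 2.01, 1.05 and 7.82, to 45.3, 51 and 46.1 (3.64 ± 0.46, SE, edgeR adjusted p = 0.000469). The integrin genes Itga1, Itga7, Itgb3 and Itgb6 fell by 1.45, 0.73, 0.53 and 0.63 (log2). Without siDUSP6 replicate 2, NC replicate 2 or siDUSP6 replicate 3, 5, 6 and 7 genes of this list were higher, 8 without siDUSP6 replicate 1, and 6 with median-of-ratios scaling over the listed genes.

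Of 62 matrix genes 17 were listed, 9 higher and 7 lower, against 6.5% and 5.75% of all tested genes. Col7a1, the collagen of anchoring fibrils, had 307, 319.7 and 317 normalized counts in NC and 774, 754 and 879 in siDUSP6 (1.35 ± 0.10, SE, edgeR adjusted p = 4.55e-06). Lamb3, a chain of the laminin that binds the integrin of Itga6 and Itgb4, had 9245, 10296 and 11250.2 and 14201, 15508 and 15667 (0.56 ± 0.08, SE, edgeR adjusted p = 0.00107). Both lay above NC in every siDUSP6 library. Lamc1, a chain of other laminins, fell from 4348, 4084 and 4372 to 2919, 2967 and 2964 (-0.53 ± 0.06, SE, edgeR adjusted p = 0.000241), and Spp1 and the protease gene Adamts1 changed by -0.53 ± 0.08 and -0.88 ± 0.16 (log2, SE). Without siDUSP6 replicate 2 or 3, 5 matrix genes were higher, and 4 were lower without siDUSP6 replicate 2. Of 37 TGF-beta and BMP genes 7 were higher and 7 lower, against the same 6.5% and 5.75% of all tested genes. The receptor gene Tgfbr1 fell by 0.59 and Bmp4 by 0.63, together with the BMP targets Id1, Id2, Id3 and Smad6 by 0.44, 0.41, 0.57 and 0.58, while Smad3, Smad7, Inhba and Ltbp3 rose by 0.32, 0.41, 0.52 and 0.55 (log2). Leaving out siDUSP6 replicate 2 gave 2 higher and 2 lower, NC replicate 2 gave 3 and 4, siDUSP6 replicate 1 gave 4 and 4, and siDUSP6 replicate 3 gave 3 and 5. Among YAP targets Amotl2 fell from 5437, 5685 and 5663 to 3485, 3452 and 3324 (-0.71 ± 0.06, SE, edgeR adjusted p = 1.85e-05), Ccn1 and Nt5e fell by 0.33 and 0.79, and Axl and Amotl1 rose by 0.41 and 0.31.

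Of 22 glucocorticoid and circadian genes 8 were listed, 2 higher and 6 lower, in cells kept in dexamethasone. The shares over all tested genes were 6.5% higher and 5.75% lower. The glucocorticoid target Tsc22d3 (GILZ) had 4980.3, 4573 and 5279.6 normalized counts in NC and 3596, 3512 and 3268 in siDUSP6 (-0.52 ± 0.07, SE, edgeR adjusted p = 0.000973), and Zbtb16 had 1026, 1056 and 1075 and 732, 750.4 and 712 (-0.52 ± 0.08, SE, edgeR adjusted p = 0.00118). Sgk1, Fkbp5 and Klf9 fell by 0.46, 0.31 and 0.29, and Nr3c1, the gene of the glucocorticoid receptor, which was counted with the hepatocyte factors and not here, by 0.31 (log2). These were modest and without overlap in the 2 genes given in full. The clock protein BMAL1, from Arntl, activates Nr1d1, whose product represses Arntl, and these genes moved apart, with Arntl at -0.52 ± 0.09 and Nr1d1 at 0.73 ± 0.10 (log2, SE). Nr1d1 overlaps Thra on the opposite strand, so its reads may include some of that gene. Without NC replicate 1, NC replicate 2 or siDUSP6 replicate 2, 1 of Nr1d1 and Lcn2, the higher genes of this list, passed.

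Lysosome, stress and translation genes changed little. Of 40 lysosome genes 6 were higher (median 0.28), Ctsb, Ctsd, Ctsl, Lamp1, Grn and Mcoln1, and 2 lower, Asah1 and Galns. Over all tested genes 6.5% were higher and 5.75% lower, so the share of lower lysosome genes was near that of all. The acid ceramidase gene Asah1 had the largest change, from 4249, 3856 and 4121 to 2655, 2619.7 and 2487 (-0.66 ± 0.07, SE, edgeR adjusted p = 8.34e-05). Of the 6 rises 1 passed without NC replicate 2, siDUSP6 replicate 2 or siDUSP6 replicate 3, 2 without siDUSP6 replicate 1, and 1 with either scaling over the listed genes. Of 31 genes of endoplasmic reticulum stress 5 were lower and 0 higher, and 3 passed without siDUSP6 replicate 2. The authors' deposited table has 5 lower and 1 higher. Herpud1, a component of the degradation machinery, had 7007, 7062 and 7584 in NC and 4764, 4533 and 4125 in siDUSP6 (-0.69 ± 0.07, SE, edgeR adjusted p = 9.85e-05). Of 30 tRNA synthetase and translation factor genes 5 were higher by 0.20 to 0.30 and 1, Eif2a, lower by 0.30. The share of lower genes was no more than the 5.75% of all tested genes, and 6.5% of all were higher. For the higher genes leaving out siDUSP6 replicate 2 or 3 left 0 and NC replicate 2 left 1. Without siDUSP6 replicate 1, 2 were left, and 3 without NC replicate 3. Of 37 ribosomal protein genes 1 was listed, Rpl7, lower by 0.46, with 21% of its words held by other genes. Of 15 genes of the microRNA and siRNA machinery Dicer1 and Tnrc6b were listed, lower by 0.31 and 0.25, and 0 passed without NC replicate 2, siDUSP6 replicate 2 or siDUSP6 replicate 3. Of 36 mitochondrial ribosome and import genes 0 were listed. Lists of DNA repair, histone, heat shock, hypoxia, iron, insulin, WNT and NOTCH genes held 18 to 40 members. Each had at most 3 higher and 4 lower genes. Both maxima were in the hypoxia list of 24 genes, against 6.5% and 5.75% of all tested genes. Without single libraries that list had 1 to 3 higher and 1 to 4 lower genes.

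Some strong changes were in genes of none of these lists, named by size or abundance. Slc4a11, a membrane transporter of the bicarbonate transporter family, had 5104, 5939 and 5232 normalized counts in NC and 11237, 12098 and 11753 in siDUSP6 (1.11 ± 0.07, SE, edgeR adjusted p = 2.41e-06), a rise in an abundant transcript. Kcnj16, an inward rectifier potassium channel, had 826, 845 and 984 and 241, 282 and 313 (-1.67 ± 0.12, SE, edgeR adjusted p = 4.06e-06). The groups were well apart in both. Gm19935, a predicted gene, had 44 counts in NC and 2 in siDUSP6, 22 times fewer (exact binomial 95% interval 5.74 to 187). Mme, the gene of the peptidase neprilysin, went from 136, 101 and 136 to 32.5, 32.7 and 30.1, and Fam107a from 195, 216 and 328 to 84.6, 78.9 and 91.2 (-1.54 ± 0.21, SE, edgeR adjusted p = 0.00079). The decarboxylase gene Ddc had 94.3, 95.7 and 191 and 39.4, 49.1 and 34.1 (-1.63 ± 0.30, SE, edgeR adjusted p = 0.0058), with 1 NC library far above the others, and the RNA-binding gene Bicc1 changed by -1.48 ± 0.22 (log2, SE). Among abundant genes, Agrn, Lgals3, Itpr3 and Hmga1 rose by 0.54, 0.56, 0.52 and 0.52, where Hmga1 shares 55% of its words, and Tmem106b fell by 0.64 (log2). Of the biliary markers Sox9, a transcription factor of the bile duct lineage, had 771, 786 and 823 and 1410.2, 1303 and 1379 (0.78 ± 0.08, SE, edgeR adjusted p = 6.21e-05), while Spp1 and Anxa13 were lower by 0.53 and 0.58 and the other 5 were not listed.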

How the data were processed

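RNA from 3 NC and 3 siDUSP6 libraries was measured as counts per gene. Per the labels, total RNA was extracted with Trizol and libraries were made with a NEBNext Ultra RNA kit, not stated to keep strand, so overlapping genes on opposite strands cannot be separated. The authors deposited whole-number counts, their mean normalized signal per gene, a linear fold (ratio) with its log2, and p-values before and after adjustment. Per the submitters' processing notes DESeq2 and mm10 were used; their versions, the aligner, the counter and the annotation were not stated (not given in the sources used here). The deposited table holds 1959 genes with an adjusted p up to 0.0499 and 191 genes without one, whose p reached at most 0.0499. The deposited adjusted p-values imply 13102 tested genes (1645 genes gave that number within 0.01).

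Size factors of the whole libraries (0.951 to 1.04) were recovered from the deposited mean signal. Normalized counts are counts divided by them. The test was edgeR's quasi-likelihood test (edgeR 4.0.16 in R 4.3.3), after filterByExpr set to at least 10 counts, which 1980 genes passed. The model held group alone, with Benjamini-Hochberg adjustment over 13102 genes and a threshold of 0.05. The dispersion rests on listed genes, and the SEs were at the median 0.89 of what the deposited p-values imply. A gene with at most 3 counts in a group is given as a ratio with its exact binomial 95% interval, or, at 0 counts, against the 3 counts that 0 allows; both cover counting error only. How the edgeR test behaves on a table of genes selected by p, as here, was not tested.

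The 59 gene lists (1551 genes) and the choice of this contrast were made with earlier results of these data known. Lists are described by counts and medians, with no test of the list. Genes named are Dusp6, in each list up to 6 called members, taken by smallest adjusted p, the 15 higher and 15 lower genes with the largest change among those with a mean of at least 100 and no overlap, and the 10 higher and 10 lower most abundant genes that changed by at least 0.5; other list members are named with their fold change to complete a group, chosen after their values were seen. Shared 50-base words were counted over GENCODE M21 transcripts (GRCm38, the assembly of mm10), which also gave positions. Promoters are those of RefSeq (GRCm38.p6), matched by symbol. Replicates were not copies of each other: chi-square over degrees of freedom was 4.45 to 25.7 in each pair. Alternatives were scaling over the listed genes by TMM or median of ratios, DESeq2 1.42.0, the deposited adjusted p, no filter, the replicate number as a block, and leaving out each library. Some genes are not reported here.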

Additional observations from a re-analysis of the deposited data

How the results depend on the processing

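Of 1605 calls, fits without single libraries passed 694 to 1408 in all, 393 to 755 higher and 301 to 653 lower; the minimum of each came from leaving out siDUSP6 replicate 2. Such fits have fewer samples. Median-of-ratios scaling over the listed genes passed 479 higher and 936 lower genes, TMM 613 and 906, against 851 and 754. These scalings assume that most listed genes did not change, and they moved log2 fold changes by a median of -0.098 and -0.052. DESeq2 with the recovered size factors passed 1024 higher and 935 lower, the deposited adjusted p 1017 and 942, and no filter on low counts 905 and 800. Of the 1605 genes 1597 were also called in the deposited table, and all 1605 with DESeq2 and without the filter. Dusp6 lay between -1.24 and -1.12 under every alternative and passed in each.

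The replicate numbers were not taken as pairing the samples: deviations of same-numbered libraries correlated at 0.37, 0.094 and 0.18, and not every library correlated best with its own number. With the replicate block 1980 genes passed, 1032 higher and 948 lower, as many as passed the filter on low counts in the main fit. Listed genes were selected for differing, so this fit hardly sorted them and is a weak check. Of the named genes 0 changed direction; 18 and 27 lost the threshold with TMM and median of ratios, 0 with DESeq2, the block and no filter, and 20 to 81 without single libraries. Counts of the interferon and MHC class I lists stayed within 1.5 times under every alternative. With median of ratios 3 phosphatase, 3 TGF-beta and BMP and 1 lysosome gene were higher. Low counts in NC limit the size of the largest interferon folds: Oas2, for example, ranged from 7.62 to 8.93 without single libraries.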
